A study of Rattus norvegicus with 6 samples.

Results

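S100a8 and S100a9 encode the subunits of calprotectin, and they are 2 of the 34225 loci in a gene count table of rat back skin. Both were taken by their gene names from that table, and both were among the 16398 loci that passed a filter on low counts. They were selected on their counts in these same libraries, which were known beforehand, so their own levels and folds are given as a description with no test. The study measured transcript abundance by RNA-seq in Sprague-Dawley rats dosed with a blocker of the EGF receptor (EGFR) until a rash appeared. The groups were gefitinib at 80 mg/kg by mouth once a day, afatinib at 30 mg/kg by the same route and schedule, and untreated skin, labelled wild type, with 2 libraries in each. Gefitinib binds the receptor kinase reversibly and afatinib binds it covalently. The untreated rats are not described as having had the vehicle. Age, sex and the day of sampling are not stated. Nothing in the labels says that the libraries of a group came from separate animals, so the p-values measure the spread between these libraries, which may be technical.

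Calprotectin is a calcium-binding heterodimer of S100A8 and S100A9. It is abundant in the cytosol of neutrophils and of monocytes, and it is scarce in healthy epidermis but made by keratinocytes in wounds, psoriasis and other inflamed skin. Inside the phagocyte it carries arachidonate to the NADPH oxidase. Outside the cell it withholds zinc and manganese from microbes and is a ligand of Toll-like receptor 4 and of the receptor for advanced glycation end products. The roles given for individual genes below come mostly from work in human and mouse.

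A promoter is shown for S100a9 alone, since the RefSeq rat promoters used here held none for S100a8. The stretch is the RefSeq sequence on the GRCr8 assembly, chr2:178490573-178490872 on the minus strand, and it runs 5′ to 3′ from 250 bases before to 50 bases after the annotated start. Capitals mark a TATAAA match that begins 42 bases before the start.

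S100a9: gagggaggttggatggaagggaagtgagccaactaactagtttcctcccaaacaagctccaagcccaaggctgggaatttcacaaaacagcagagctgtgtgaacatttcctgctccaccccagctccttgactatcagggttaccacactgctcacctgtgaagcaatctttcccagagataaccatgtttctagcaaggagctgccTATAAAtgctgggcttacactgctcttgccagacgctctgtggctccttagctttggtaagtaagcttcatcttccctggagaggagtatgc

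The TATAAA motif was found in 14.2% of 33469 RefSeq rat promoters of the same length, with both strands searched. Letters for 5 other factors were searched in the same way and had no match in this window. They were TTGCNNAA for C/EBP factors, held by 10.6% of promoters, TGANTCA for AP-1, held by 7.33%, and TTCNNNGAA for STAT factors, held by 8.87%. ACGTG for hypoxia response was held by 19.3%, and an NF-kB sequence of GGG, any pair of bases and TTTCC was held by 1.53%. A match or its absence describes the letters of this window and says nothing of the factor.

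By the deposited coordinates S100a8 (ENSRNOG00000011557) lies on chromosome 2 from 190073815 to 190074354 on the plus strand. S100a9 (ENSRNOG00000011483) lies on the same chromosome from 190097554 to 190100276 on the minus strand. The genes stand 23199 bases apart with no named gene between them. These coordinates are the table's own, and no source used here names the assembly behind them, so they are not on the scale of the GRCr8 promoter. The table's transcript lengths are 377 bases for S100a8 and 528 bases for S100a9.

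S100a8 was abundant in every rash library and scarce in both untreated libraries. The deposited counts were 9575 and 14770 in the gefitinib libraries, 15277 and 24616 in the afatinib libraries, and 92 and 98 in the untreated libraries. As CPM, which is counts scaled to a common library size with edgeR's trimmed mean of M-values (TMM), this was 375 and 646 in gefitinib skin, 993 and 949 in afatinib skin, and 6.36 and 5.70 in untreated skin. The groups did not overlap, though the share of all genes without overlap was not counted. The gefitinib libraries were farther apart than those of the other groups.

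S100a9 was likewise abundant in rash skin and was close to the detection limit in untreated skin. Counts were 8484 and 14142 in the gefitinib libraries, 14089 and 18485 in the afatinib libraries, and 10 and 5 in the untreated libraries. The CPM was 333 and 619 in gefitinib skin, 916 and 713 in afatinib skin, and 0.692 and 0.291 in untreated skin. The exact 95% Poisson intervals of the untreated values ran from 0.332 to 1.27 and from 0.0945 to 0.679 CPM, so the untreated libraries could not be told apart at this depth. These intervals, like all counting intervals below, cover counting error only, since the labels mention no molecular identifiers.

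**Figure D1:**
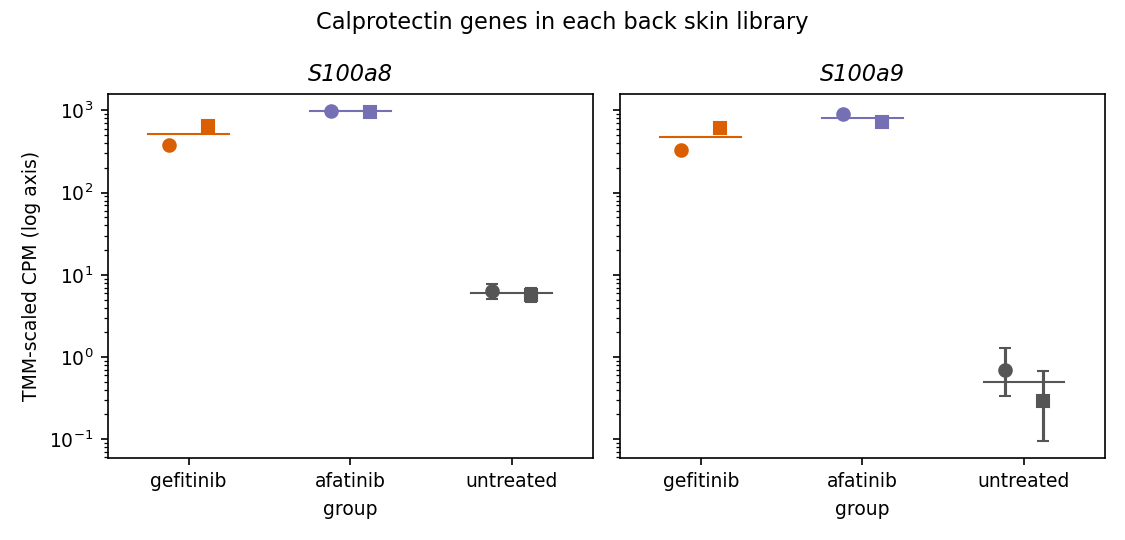
TMM-scaled CPM of S100a8 (left) and S100a9 (right) on a log axis, with circles for replicate 1, squares for replicate 2, a line at each group mean and exact 95% Poisson intervals as bars. Every gefitinib and afatinib library sits above 330 CPM for both genes, while untreated skin lies near 6 CPM for S100a8 and below 1 CPM for S100a9.

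Group means of S100a8 were 511 ± 192 CPM in gefitinib skin, 971 ± 30.8 CPM in afatinib skin and 6.03 ± 0.467 CPM in untreated skin (SD, n = 2 each). The gefitinib mean was 84.7 times the untreated mean, 6.40 on the log2 scale, and the afatinib mean was 161 times it, 7.33 on the log2 scale. Over all pairings of single libraries, the ratio ran from 59.0 to 113 for gefitinib and from 149 to 174 for afatinib.

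For S100a9 the means were 476 ± 203 CPM in gefitinib skin, 814 ± 143 CPM in afatinib skin and 0.491 ± 0.283 CPM in untreated skin (SD, n = 2 each). These are ratios of 969 for gefitinib and 1657 for afatinib, or log2 9.92 and 10.69. Single-library ratios ran from 481 to 2127 for gefitinib and from 1031 to 3147 for afatinib. The size of the S100a9 ratio rests on 15 counts in all in untreated skin: without untreated replicate 1 the log2 values were 10.68 and 11.45, and without untreated replicate 2 they were 9.43 and 10.20, gefitinib first in each case. In whole skin, more cells that make a transcript and more transcript per cell cannot be told apart.

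On the per-length scale, which allows the genes to be compared, the deposited FPKM of S100a8 was 971 and 1709 in gefitinib skin, 2574 and 2384 in afatinib skin, and 17.0 and 15.3 in untreated skin. S100a9 had 614 and 1168 FPKM in gefitinib skin, 1695 and 1278 FPKM in afatinib skin, and 1.32 and 0.559 FPKM in untreated skin. S100a8 stood above S100a9 in all 6 libraries. Ranked among all loci of its own library by FPKM, S100a8 was at place 78 and 59 in the gefitinib libraries, 36 and 16 in the afatinib libraries, and 3858 and 4333 in the untreated libraries. The corresponding places of S100a9 were 134 and 90 for gefitinib, 60 and 49 for afatinib, and 12468 and 14291 for untreated. Together the genes took 0.0913% and 0.141% of all counts in gefitinib libraries, 0.171% and 0.231% in afatinib libraries, and 0.000506% and 0.000466% in untreated libraries.

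The balance of the subunit transcripts is given as a description, since it comes from the counts on which the pair was selected. S100a9 supplied 47.0% (46.3 to 47.7) and 48.9% (48.3 to 49.5) of the pair's counts in gefitinib libraries and 48.0% (47.4 to 48.6) and 42.9% (42.4 to 43.4) in afatinib libraries, with exact Clopper-Pearson 95% intervals in brackets. In untreated libraries it supplied 9.80% (4.8 to 17.3) and 4.85% (1.6 to 11). These intervals do not cover the spread between samples. Per length, the ratio of S100a9 to S100a8 FPKM was 0.633 and 0.684 in gefitinib skin, 0.659 and 0.536 in afatinib skin, and 0.0776 and 0.0364 in untreated skin. Afatinib replicate 2 had the lowest ratio of the rash libraries.

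**Figure D2:**
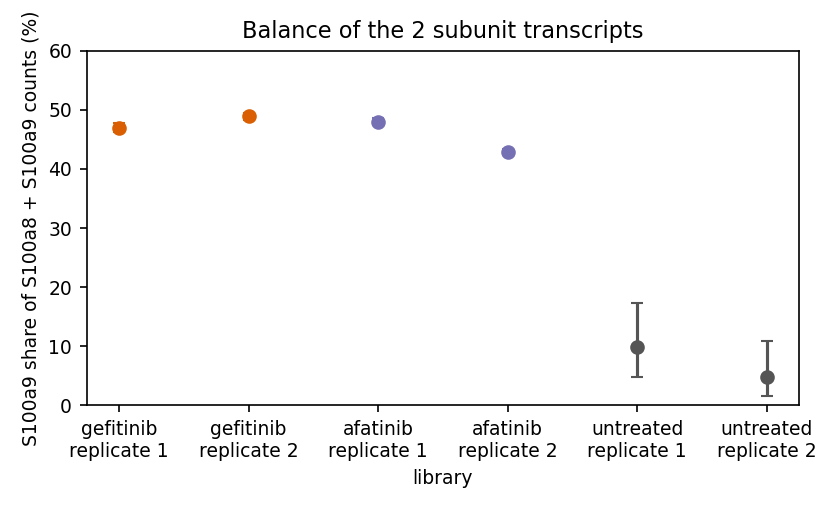
Share of S100a8 plus S100a9 counts that belong to S100a9 (vertical axis, percent) in each library, with exact 95% Clopper-Pearson intervals as bars. The 4 rash libraries lie between 42.9% and 48.9%, and the untreated libraries lie at 9.80% and 4.85% with wide intervals.

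Afatinib and gefitinib were given at different doses, so their values stand side by side without a comparison of the compounds. Both afatinib libraries lay above both gefitinib libraries for each gene. The share of all genes that separate in this way was not counted, so this order is a description only. The ratio of the afatinib to the gefitinib mean was 1.90 for S100a8 and 1.71 for S100a9, with single-library ratios from 1.47 to 2.65 and from 1.15 to 2.75. Without afatinib replicate 1 or any other single library, the log2 ratio ranged from 0.59 to 1.37 for S100a8 and from 0.40 to 1.29 for S100a9. Over all tested genes, edgeR's quasi-likelihood test called 0 between the inhibitors at an adjusted p of 0.05, which is 0.0% of 16398. At an unadjusted p below 0.05 there were 946, and DESeq2 called 28.

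Library totals ran from 17206456 to 22086673 counts, and from 18487 to 19913 loci had a count. The libraries differed in tissue makeup. Transcripts of 9 skeletal muscle marker genes took 4.20% and 7.37% of counts in gefitinib libraries, 13.7% and 4.75% in afatinib libraries, and 17.0% and 15.8% in untreated libraries. Afatinib replicate 1 stood apart from its partner: across genes its log CPM correlated at 0.935 and 0.939 with the untreated libraries and at 0.925 with afatinib replicate 2. On the TMM scale it had the highest CPM of both calprotectin genes, while by share of all counts afatinib replicate 2 was highest for both. Without it, the afatinib log2 ratio to untreated skin was 7.30 for S100a8 and 10.5 for S100a9.

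The summed level of neutrophil markers was higher in every rash library than in untreated skin. The 17 listed markers, which do not include the calprotectin genes, summed to 55.0 and 61.3 CPM in gefitinib skin, 73.2 and 114 CPM in afatinib skin, and 14 and 11.1 CPM in untreated skin. Among the 10 tested, 5 rose with gefitinib and 5 rose with afatinib. DESeq2, run without the filter on low counts, called 6 of the 17 listed markers higher with gefitinib and 8 with afatinib. Over all 22290 loci it called 2578 and 1478 higher, gefitinib first. The share of all tested genes that rose was 12.3% with gefitinib and 3.6% with afatinib (edgeR adjusted p below 0.05). These shares also stand beside the marker lists below. All lists were chosen with earlier results of these data known, so such counts are a description. Of the 10, 6 had at most 3 untreated counts in all and passed the filter on low counts through the rash libraries, so a high value in rash was built into their being tested. Of the other 4, 2 rose with each inhibitor. Without afatinib replicate 1 the afatinib count was 8, and without either untreated library edgeR called 0 with gefitinib (7 at an unadjusted p below 0.05 each time) and 0 with afatinib (7 and 8). Leaving out each of the other 3 rash libraries in turn gave between 2 and 5 calls.

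Csf3r, the receptor for granulocyte colony-stimulating factor, had 4.82 and 3.90 CPM in gefitinib skin, 7.93 and 17.1 CPM in afatinib skin, and 0.484 and 0.698 CPM in untreated skin. It rose by log2 2.86 ± 0.54 with gefitinib (SE, edgeR adjusted p = 0.0181) and by 4.38 with afatinib (edgeR adjusted p = 0.0257). Among genes of the neutrophil granule, Mpo, Elane, Prtn3, Ctsg, Camp and Ngp were near the floor, though their sum was higher in every rash library. Their summed counts were 37 and 30 in gefitinib libraries, 24 and 95 in afatinib libraries, and 2 and 3 in untreated libraries. Mmp8 and Mmp9, also on the neutrophil list, were higher in rash skin and rose with each inhibitor. Mmp8 had 2.74 and 3.94 CPM in gefitinib skin, 2.01 and 2.97 CPM in afatinib skin, and 0.138 and 0 CPM in untreated skin. With 2 untreated counts in all, the edgeR adjusted p of Mmp8 was 0.015 and 0.0369. Mpo, myeloperoxidase, had 1.06 and 0.394 CPM in gefitinib skin, 0.780 and 2.31 CPM in afatinib skin, and 0 and 0.175 CPM in untreated skin, with edgeR adjusted p = 0.129 and 0.108. The chemokine receptor Cxcr2 did not pass either (edgeR adjusted p = 0.181 with gefitinib and 0.0761 with afatinib). Elane, neutrophil elastase, had 6 counts in the afatinib libraries, 0 in the gefitinib libraries and 1 in the untreated libraries, and Ctsg and Fpr1 had none in any library.

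Most of the neutrophil list's signal in rash skin came from Padi4, a protein-citrullinating enzyme, and Mmp9, gelatinase B, which other skin cells also make. They made up 66.4% and 75.6% of the list's counts in gefitinib libraries, 58.6% and 62.9% in afatinib libraries, and 5.45% and 12.1% in untreated libraries. The integrins Itgam and Itgb2 held most of the list's untreated counts and did not pass with either inhibitor. Itgam had log2 fold changes of −0.98 with gefitinib and 0.43 with afatinib (edgeR adjusted p = 0.19 and 0.636). Itgb2 had −0.58 and 0.48 (edgeR adjusted p = 0.327 and 0.52). Without Padi4, Mmp9 and these integrins, the 13 remaining markers summed to 10.4 and 10.4 CPM in gefitinib skin, 15 and 28.6 CPM in afatinib skin, and 0.899 and 0.873 CPM in untreated skin. That remainder was formed after the values were seen. The part of neutrophils in the calprotectin levels was not tested.

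The summed level of stressed keratinocyte markers, genes of activated epidermis, was also higher in every rash library. That list had 8 genes with values, which summed to 804 and 611 CPM in gefitinib skin, 526 and 748 CPM in afatinib skin, and 46.4 and 96.3 CPM in untreated skin. Krt17, a keratin that hair follicles also make, held 87.2% and 86.0% of the list's counts in gefitinib libraries, 81.1% and 86.1% in afatinib libraries, and 93.1% and 96.4% in untreated libraries. The other 7 genes summed to 103 and 85.8 CPM in gefitinib skin, 99.5 and 104 CPM in afatinib skin, and 3.18 and 3.43 CPM in untreated skin. Of the 8, 7 rose with each inhibitor, but Krt16, Sprr1b, Sprr2d and Serpinb3 had at most 3 untreated counts in all and passed the filter through the rash libraries. The other 4 rose with each inhibitor. Without untreated replicate 1, edgeR called 1 with gefitinib and 0 with afatinib, and without untreated replicate 2 it called 0 with both, although all 8 kept an unadjusted p below 0.05. Krt16, a keratin of wounded and psoriatic epidermis, had 11.5 and 5.51 CPM in gefitinib skin, 34.4 and 18.9 CPM in afatinib skin, and 0.0692 and 0.116 CPM in untreated skin. With 3 untreated counts in all, its ratio was 91.6 (exact 95% counting interval 31.1 to 446) for gefitinib and 261 (88.9 to 1266) for afatinib. The edgeR adjusted p of Krt16 was 0.00971 and 0.0066. Sprr1b, a cornified envelope precursor, had no untreated count and was at least 107-fold higher with gefitinib and at least 58.6-fold higher with afatinib, against a floor of 3 counts per library. The part of these cells in the calprotectin levels was not tested either.

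Summed macrophage markers overlapped between the groups. The 11 genes in the table summed to 257 and 146 CPM in gefitinib skin, 416 and 182 CPM in afatinib skin, and 356 and 222 CPM in untreated skin. The edgeR test called 0 of the 9 tested with either inhibitor, with 1 at an unadjusted p below 0.05 for gefitinib and 0 for afatinib, and DESeq2 called 1 lower with gefitinib and 0 with afatinib. Hair follicle markers behaved otherwise: all 14 tested genes rose with gefitinib and 8 rose with afatinib, or 14 without afatinib replicate 1. Without any 1 of the other libraries the hair count lay between 0 and 14, and it was 0 in both comparisons without either untreated library, where all 14 had an unadjusted p below 0.05. Of the 14 hair genes, Krt86 had 1 untreated count in all and passed the filter on low counts through the rash libraries. The other 13 all rose with gefitinib in the fit of all 6 libraries, and 7 of them rose with afatinib. The sum of all 14 was 5565 and 4554 CPM in gefitinib skin, 1330 and 4394 CPM in afatinib skin, and 90.6 and 336 CPM in untreated skin. On this TMM scale afatinib replicate 1 was the lowest rash library for hair and the highest for calprotectin, whose share of all counts was highest in afatinib replicate 2.

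**Figure D3:**
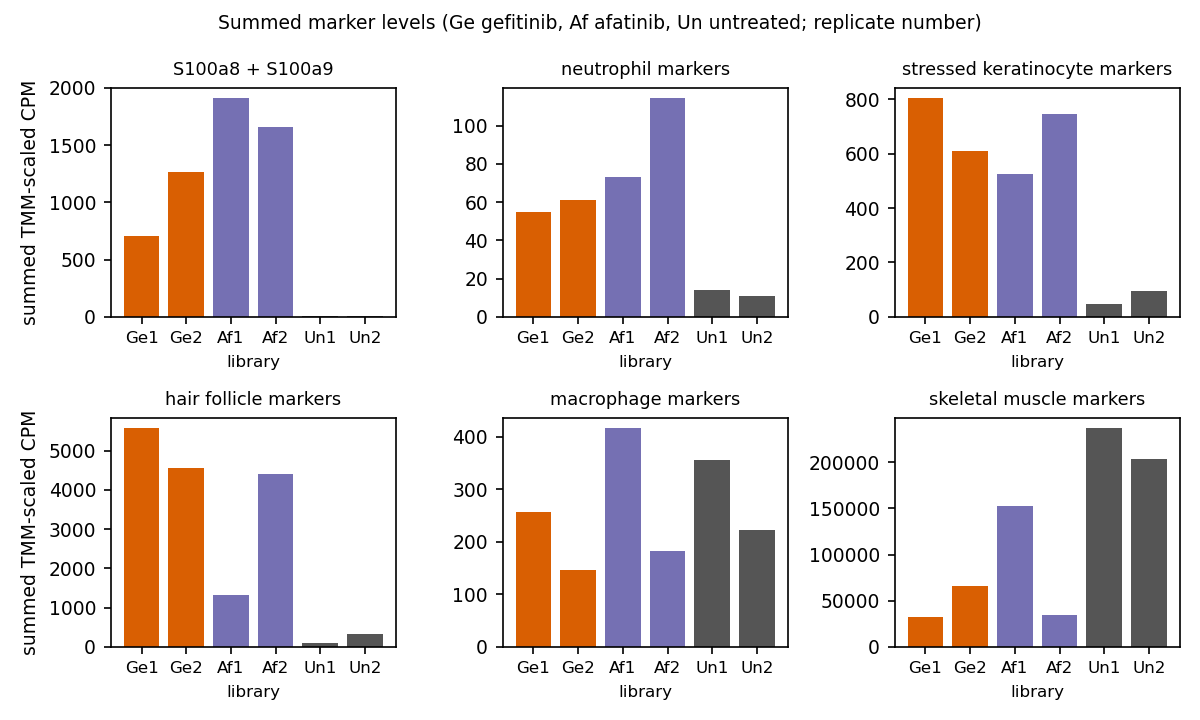
Summed TMM-scaled CPM (vertical axes, each from 0) in every library for the calprotectin pair and for marker lists of neutrophils, stressed keratinocytes, hair follicle, macrophages and skeletal muscle. Neutrophil and stressed keratinocyte sums are higher in all 4 rash libraries than in untreated skin, hair and muscle sums set afatinib replicate 1 apart, and macrophage sums overlap between groups.

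Among genes whose level profile over the 6 libraries was most like that of the calprotectin genes, stefins and oxidases came first. Likeness was the root mean square difference between centred log2(CPM + 0.5) profiles, taken over 13555 named tested genes, and smaller is more alike. The distance between S100a8 and S100a9 was 1.22, against a median of 3.20 from S100a8 to all candidates and 4.39 from S100a9. There were 11 genes nearer to S100a8 than S100a9 was, and 1 gene, Stfa3, nearer to S100a9 than S100a8 was. Since every nearest gene is high in rash skin by construction, no test of it is given.

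Nearest to S100a8 was Uox, urate oxidase, at a distance of 0.532. Uox had 29.9 and 30.9 CPM in gefitinib skin, 57.5 and 50.9 CPM in afatinib skin, and 0.484 and 0.0582 CPM in untreated skin. Stfa3, a stefin-family inhibitor of cysteine proteases, followed at 0.613 and was the nearest to S100a9 at 0.989. Stfa3 had 135 and 169 CPM in gefitinib skin, 326 and 132 CPM in afatinib skin, and 0.277 and 0.756 CPM in untreated skin. The stefin Stfa2l1 was at 0.677 from S100a8, the aldehyde oxidase Aox4 at 0.813, Mmp9 at 0.894 and the collagenase Mmp13 at 0.960, followed by Krt16 and Sprr1b. The lists of 8 for S100a8 and S100a9 shared 6 genes, and the hair shaft genes Krt31 and Krtap15-1 were on the S100a9 list alone, at 1.98 and 2.14.

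**Figure D4:**
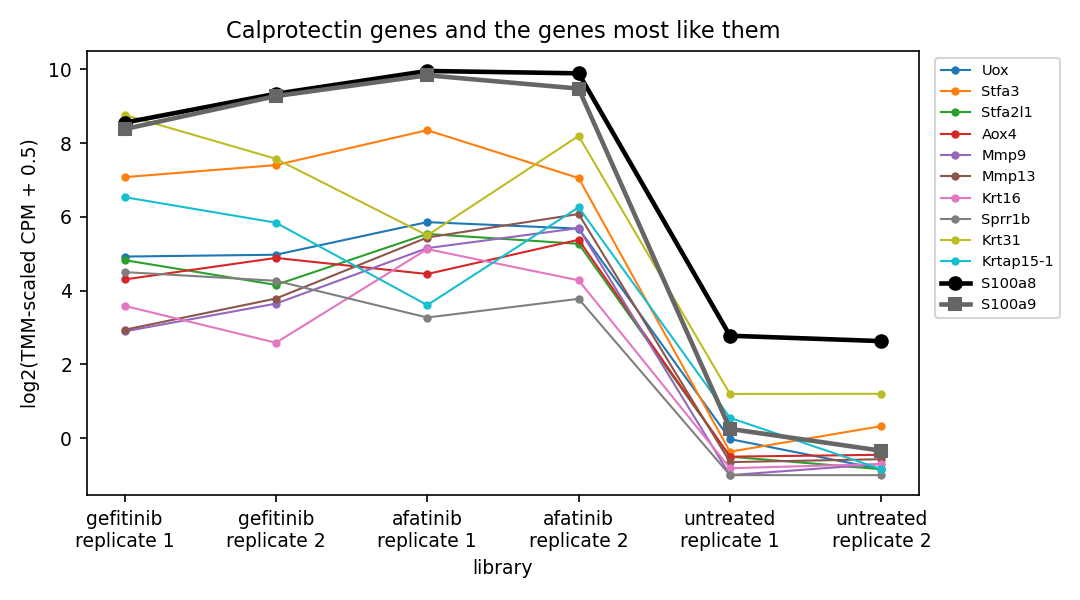
Level of S100a8 and S100a9 (thick lines) and of the 10 genes with the most similar profiles, as log2(TMM-scaled CPM + 0.5), in the 6 libraries; lines only join the values of a gene. All profiles are lowest in the untreated libraries, and Krt31 and Krtap15-1 dip in afatinib replicate 1, where S100a8 and S100a9 are highest on this scale.

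Calprotectin belongs to the S100 family of small calcium-binding proteins, most of which lie in a cluster with the cornified envelope genes on chromosome 2. Of 15 other genes listed with the family and given in the data, 10 were tested, and 3 of the 10 rose with gefitinib (12.3% of all tested genes did) and 2 of the 10 rose with afatinib (3.6% of all tested genes did). None fell by the edgeR test, while DESeq2 called 2 lower with gefitinib. The median log2 fold change of the 10 was −0.02 with gefitinib and 0.49 with afatinib, against 0.04 and 0.09 over all tested genes. The list leaves out S100vp, an S100-named locus described with the neighbours.

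S100a3, a hair cuticle protein, had 958 and 439 CPM in gefitinib skin, 202 and 712 CPM in afatinib skin, and 33.4 and 27.2 CPM in untreated skin. It rose by log2 4.53 ± 0.73 with gefitinib (SE, edgeR adjusted p = 0.0142) and by 3.91 ± 0.71 with afatinib (edgeR adjusted p = 0.0369). Its level was lowest among rash libraries in afatinib replicate 1, as were the hair follicle markers, and their part in the result was not tested. S100a11, a protein of the cornified envelope, had 237 and 227 CPM in gefitinib skin, 224 and 213 CPM in afatinib skin, and 88.2 and 68.0 CPM in untreated skin. S100a11 rose by log2 1.57 (edgeR adjusted p = 0.017) and 1.48 (edgeR adjusted p = 0.0412). S100a16 rose by log2 1.13 with gefitinib (edgeR adjusted p = 0.0414), and with afatinib its log2 fold change of 0.75 did not pass (edgeR adjusted p = 0.195).

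The other tested genes of this list did not pass with either inhibitor. S100a6, calcyclin, had 265 and 257 CPM in gefitinib skin, 455 and 472 CPM in afatinib skin, and 261 and 185 CPM in untreated skin (edgeR adjusted p = 0.628 and 0.116). S100a4, a marker of motile mesenchymal cells, had edgeR adjusted p = 0.495 and 0.583, and S100a10, the annexin A2 partner, had 0.558 and 0.731. S100a1, a muscle protein, had 21.3 and 32.0 CPM in gefitinib skin, 86.5 and 21.4 CPM in afatinib skin, and 87.0 and 65.1 CPM in untreated skin (edgeR adjusted p = 0.112 and 0.647). S100b and S100a13 did not pass either, nor did S100pbp, a binding protein of the family rather than a member. S100a5, S100a7a, S100a7l2, S100g and S100z were too low to test, and S100a14 was not analysed here.

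The 3 fused-type genes with values, whose proteins join an S100 domain to long repeats in the cornified cell or hair sheath, all rose with gefitinib, although Rptn was tested through the rash libraries alone. Tchh, trichohyalin of the inner root sheath, had 636 and 243 CPM in gefitinib skin, 105 and 449 CPM in afatinib skin, and 3.46 and 12.2 CPM in untreated skin. Tchh rose by log2 5.81 (edgeR adjusted p = 0.0155) and 5.14 (edgeR adjusted p = 0.0412). Rptn, repetin, had no untreated count and was at least 3.89-fold higher with gefitinib (edgeR adjusted p = 0.0334) and at least 8.77-fold higher with afatinib (edgeR adjusted p = 0.0425). Crnn, cornulin, rose by log2 4.52 with gefitinib (edgeR adjusted p = 0.0297), and its 3.86 with afatinib did not pass (edgeR adjusted p = 0.082).

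Along the chromosome, the loci closest to the pair did not share its levels. S100a7a, 11280 bases before S100a8, had 3 counts in gefitinib libraries, 4 in afatinib libraries and 1 in untreated libraries. Pglyrp4, a peptidoglycan recognition protein gene 25416 bases after S100a9, had 0 counts in all rash libraries and 4 in untreated libraries. Pglyrp3, Pglyrp3b and S100a7l2, farther out on the same side, were also too low to test. Of the 16 nearest named loci, 8 on each side, 10 were tested, and 6 rose with gefitinib and 4 rose with afatinib, against 12.3% and 3.6% of all tested genes. S100vp, Sprr2h and Sprr2d had no untreated count and passed the filter through the rash libraries. Of the other 7, 3 rose with gefitinib and 2 rose with afatinib. S100vp had 22 and 20 counts in gefitinib libraries, 3 and 9 in afatinib libraries, and 0 in both untreated libraries. It was at least 4.55-fold higher with gefitinib (edgeR adjusted p = 0.0248) and did not pass with afatinib (edgeR adjusted p = 0.111). Prr9, a proline-rich gene 1925598 bases after S100a9, had 17.4 and 12.9 CPM in gefitinib skin, 4.22 and 19.9 CPM in afatinib skin, and 0.553 and 0.756 CPM in untreated skin. Prr9 rose by log2 4.51 (edgeR adjusted p = 0.0156) and 4.19 (edgeR adjusted p = 0.0391).

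**Figure D5:**
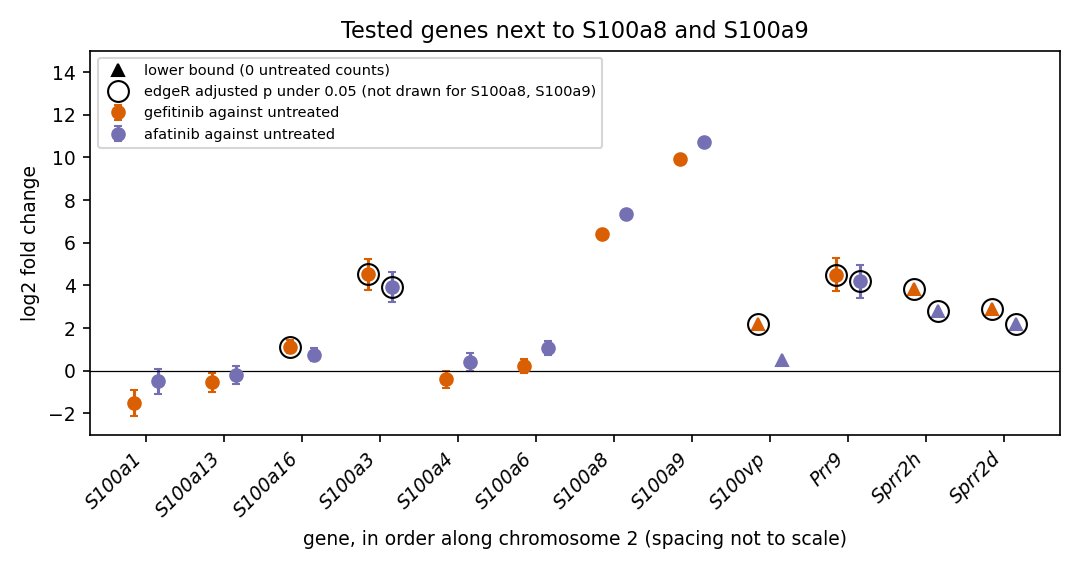
Log2 fold change of the tested neighbours of the calprotectin pair against untreated skin, in order along the chromosome, with SE bars for genes other than S100a8 and S100a9 and open circles at an edgeR adjusted p below 0.05. Triangles are lower bounds for genes with 0 untreated counts. S100a8 and S100a9 are drawn without a test at 6.40 and above, Sprr2h, Sprr2d and S100vp cannot be ranked against them, and S100a4 and S100a6 lie near 0 or 1.

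Around the pair, 11 lists were read, with 104 tested genes in all. Some hold genes that regulate calprotectin or act with it. The others hold further S100 genes, S100-fused genes, metal-handling genes and other antimicrobial genes. With gefitinib 32 of the 104 rose and 4 fell, and with afatinib 24 rose and 1 fell. The S100, S100-fused, metal and antimicrobial lists held 3, 3, 6 and 6 of the rises with gefitinib. With afatinib they held 2, 2, 4 and 5. Of the 104, 10 had at most 3 untreated counts and passed the filter through the rash libraries. Among the other 94, 26 rose and 4 fell with gefitinib and 19 rose and 1 fell with afatinib. Over all tested genes 12.3% rose and 5.45% fell with gefitinib (17.7% in all), and 3.6% rose and 0.372% fell with afatinib (3.98% in all). The median log2 fold change of the 104 was 0.38 and 0.72. Since the lists were chosen with earlier results of these data known, the counts are no test of the lists. The same holds for each list below, whose counts stand beside the same shares. These calls depend on the untreated pair: with either untreated library left out, edgeR called 0 of 109 tested list genes in both comparisons, with 41 and 44 at an unadjusted p below 0.05 for gefitinib and 40 and 39 for afatinib. Without gefitinib replicate 1 there were 19 calls with gefitinib and 5 with afatinib, without gefitinib replicate 2 there were 10 and 5, without afatinib replicate 1 there were 45 and 44, and without afatinib replicate 2 there were 43 and 8. No called gene named here reversed its direction under any of these.

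Most receptors of extracellular calprotectin did not pass the test, as was so for most tested genes. Of 9 tested, 1 rose and 1 fell with gefitinib (22.2%, against 17.7% of all tested genes). With afatinib edgeR called none (0.0%, against 3.98%), and 2 had an unadjusted p below 0.05. DESeq2 also called none with afatinib. The median log2 fold change of the list was −0.07 and 0.10. Tlr4, the Toll-like receptor that binds calprotectin, had 3.06 and 1.49 CPM in gefitinib skin, 5.13 and 3.70 CPM in afatinib skin, and 11 and 7.27 CPM in untreated skin. It fell by 2.0 ± 0.50 on the log2 scale with gefitinib (SE, edgeR adjusted p = 0.0362), and its change of −1.05 with afatinib did not pass (edgeR adjusted p = 0.257). Under scaling by library size alone the gefitinib change was −1.27 (edgeR adjusted p = 0.145).

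Alcam, an adhesion molecule that has been reported to bind S100 proteins, rose by log2 1.89 with gefitinib (edgeR adjusted p = 0.0431), and with afatinib it had 1.49 (edgeR adjusted p = 0.14). Cd14, the co-receptor of Tlr4, had 12 and 8.10 CPM in gefitinib skin, 13.7 and 14.3 CPM in afatinib skin, and 7.88 and 6.11 CPM in untreated skin (edgeR adjusted p = 0.288 and 0.144). The adaptor Myd88 had 20.8 and 16.2 CPM in gefitinib skin, 20.4 and 21.4 CPM in afatinib skin, and 21.9 and 16.9 CPM in untreated skin (edgeR adjusted p = 0.873 and 0.841). Ager, the receptor for advanced glycation end products, had edgeR adjusted p = 0.352 and 0.983, and Bsg, basigin, an S100A9 receptor, had 0.256 and 0.641. Nptn, Mcam and Cd69 did not pass. Ly96 and Cd36 were not analysed here.

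No gene of the phagocyte NADPH oxidase passed. The edgeR test called 0 of 6 with either inhibitor, against 17.7% of all tested genes with gefitinib and 3.98% with afatinib. None had an unadjusted p below 0.05, and DESeq2 called 0. Cybb, the catalytic subunit, had 11 and 7.83 CPM in gefitinib skin, 22.7 and 10.9 CPM in afatinib skin, and 16.6 and 8.38 CPM in untreated skin (edgeR adjusted p = 0.559 and 0.631). Its partner Cyba had 24.1 and 20.5 CPM in gefitinib skin, 30.7 and 24.3 CPM in afatinib skin, and 20.7 and 16.4 CPM in untreated skin (edgeR adjusted p = 0.484 and 0.26). The groups overlapped for Cybb and for the cytosolic subunit Ncf1, and the subunit Ncf4 had edgeR adjusted p = 0.928 and 0.312. The list's median log2 fold change was 0.01 and 0.35.

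Of 9 tested genes that release, carry or convert arachidonate, 2 rose with each inhibitor, and the median log2 fold change was 0.08 and 0.04. Fabp5, the epidermal fatty acid binding protein and a partner of S100A7 in keratinocytes, had 1650 and 1219 CPM in gefitinib skin, 750 and 1005 CPM in afatinib skin, and 41.4 and 121 CPM in untreated skin. Fabp5 rose by log2 4.15 (edgeR adjusted p = 0.0128) and 3.44 (edgeR adjusted p = 0.0369). Ptgs2, the inducible cyclooxygenase, had 4.74 and 4.95 CPM in gefitinib skin, 13.9 and 20.3 CPM in afatinib skin, and 0.830 and 0.349 CPM in untreated skin. Ptgs2 rose by log2 3.05 (edgeR adjusted p = 0.0147) and 4.87 (edgeR adjusted p = 0.0139). Ptgs2 was the single gene of the 11 lists that DESeq2 called between the inhibitors, by log2 1.78 higher with afatinib (DESeq2 adjusted p = 0.0492). Pla2g4a, which frees arachidonate from membranes, did not pass (edgeR adjusted p = 0.0644 and 0.134).

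Of 16 listed cytokines known to raise calprotectin in keratinocytes, 8 were tested, and 5 rose with each inhibitor. Il1a, Il19, Il20 and Il6 had at most 3 untreated counts and passed the filter through the rash libraries, and of these Il19 alone rose. The other 4 rose with each inhibitor. Il1b, interleukin-1 beta, had 7.41 and 15.9 CPM in gefitinib skin, 24.0 and 53.2 CPM in afatinib skin, and 0.899 and 0.640 CPM in untreated skin. It rose by log2 3.92 (edgeR adjusted p = 0.0128) and 5.65 (edgeR adjusted p = 0.0153).

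Il36g, the interleukin-36 of stressed epidermis, had 5.18 and 4.77 CPM in gefitinib skin, 7.54 and 12.5 CPM in afatinib skin, and 0.277 and 0.349 CPM in untreated skin. Il36g rose by log2 3.96 (edgeR adjusted p = 0.0105) and 4.97 (edgeR adjusted p = 0.0134). Il24 rose by log2 3.70 and 4.44 (edgeR adjusted p = 0.0142 and 0.0289), and Osm, oncostatin M, by log2 2.23 and 3.09 (edgeR adjusted p = 0.0326 and 0.0357). Il19, of the interleukin-20 family, had no untreated count and was at least 20.5-fold higher with gefitinib and at least 14.9-fold higher with afatinib (edgeR adjusted p = 0.0105 and 0.0257). The interleukin-17 and interleukin-22 genes Il17a, Il17f and Il22 had at most 0.438 CPM in any library and were not tested. None had an untreated count. Il17a had 7 and 7 counts in gefitinib libraries and 2 and 5 in afatinib libraries. Il17f had 10 and 10, then 0 and 3, and Il22 had 6 and 4, then 0 and 11. DESeq2, run without the filter on low counts, called 8 of the listed cytokines higher with each inhibitor.

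The receptors of these cytokines had calls in both directions. Of 15 tested, 2 rose and 2 fell with gefitinib (26.7%, against 17.7% of all tested genes). With afatinib 1 rose (6.67%, against 3.98%). The median log2 fold change was −0.01 and 0.29, and 7 and 6 had an unadjusted p below 0.05. Il17ra (log2 0.69 and 0.71, edgeR adjusted p = 0.0901 and 0.154) and Il17rc (0.79 and 0.80, edgeR adjusted p = 0.0875 and 0.154) did not pass. Il1rl2, the interleukin-36 receptor, had 15.3 and 16.8 CPM in gefitinib skin, 12 and 29.2 CPM in afatinib skin, and 4.50 and 2.85 CPM in untreated skin, a rise of log2 2.13 (edgeR adjusted p = 0.0283) and 2.5 (edgeR adjusted p = 0.0413). Il22ra1 rose by log2 2.59 with gefitinib (edgeR adjusted p = 0.0205). Il20rb fell by 1.86 and Il6st, the shared signal transducer gp130, by 1.52 on the log2 scale with gefitinib (edgeR adjusted p = 0.0316 and 0.0259). Under scaling by library size alone these were −1.15 and −0.82 and did not pass (edgeR adjusted p = 0.149 and 0.219).

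Most transcription factors known to act on the calprotectin genes did not pass. Of 14 tested, 1 rose and 1 fell with gefitinib (14.3%, against 17.7% of all tested genes) and 1 rose and 1 fell with afatinib (14.3%, against 3.98%), with a median log2 fold change of −0.02 and 0.18. Cebpa had 92.9 and 92.8 CPM in gefitinib skin, 41.3 and 100 CPM in afatinib skin, and 13.7 and 18.2 CPM in untreated skin. This regulator of myeloid and keratinocyte differentiation rose by log2 2.54 (edgeR adjusted p = 0.015) and 2.15 (edgeR adjusted p = 0.0431). Cebpd had 80.9 and 70.0 CPM in gefitinib skin, 41.1 and 26.6 CPM in afatinib skin, and 101 and 103 CPM in untreated skin. It fell by 1.59 on the log2 scale with afatinib (edgeR adjusted p = 0.0369) but not past the threshold under scaling by library size alone (−1.05, edgeR adjusted p = 0.0788), and its gefitinib change was −0.43 (edgeR adjusted p = 0.29).

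Fos, an immediate early subunit of AP-1, had 40.1 and 27.3 CPM in gefitinib skin, 59.8 and 40.5 CPM in afatinib skin, and 163 and 122 CPM in untreated skin. Fos fell by 2.08 on the log2 scale with gefitinib (edgeR adjusted p = 0.0139), and its −1.51 with afatinib did not pass (edgeR adjusted p = 0.0524). Its partner Jun had edgeR adjusted p = 0.0959 and 0.198, and Fosl1 had 0.164 and 0.0769.

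Chemokines and cytokines that calprotectin can induce through its receptors were higher in part. Of 12 tested, 4 rose with gefitinib and 3 rose with afatinib, of which Cxcl2 was tested through the rash libraries, with 1 untreated count. Of the 9 with more than 3 untreated counts, 3 rose with gefitinib and 2 rose with afatinib. Cxcl2, a neutrophil chemoattractant, had 2.55 and 19.4 CPM in gefitinib skin, 13.5 and 31.0 CPM in afatinib skin, and 0 and 0.0582 CPM in untreated skin. With 1 untreated count, the Cxcl2 ratio was 333 (exact 95% counting interval 59.4 to 13160) for gefitinib and 775 (139 to 30640) for afatinib, and the edgeR adjusted p was 0.0175 and 0.0331. Cxcl1 rose by log2 4.18 and 4.70 (edgeR adjusted p = 0.0172 and 0.0335). Ccl20, which draws Th17 cells, rose with gefitinib by log2 3.74 (edgeR adjusted p = 0.0372) and did not pass with afatinib (edgeR adjusted p = 0.168). Il6 had no untreated count and did not pass (edgeR adjusted p = 0.0501 and 0.0754).

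Genes that handle zinc and other metals, the ions calprotectin sequesters, rose in part. Of 12 tested, 6 rose with gefitinib and 4 rose with afatinib, against 12.3% and 3.6% of all tested genes. The list's median log2 fold change was 1.14 and 1.25. Lcn2 (edgeR adjusted p = 0.225 and 0.156), Slc11a1 (0.609 and 0.456) and Hp (0.288 and 0.675) passed with neither inhibitor. Neither did Hpx, Tf and Mt3, and the log2 fold changes of Tf and Mt3 were negative with both. Ltf was too low to test. Mt1, a metallothionein, had 49.6 and 46.6 CPM in gefitinib skin, 21.5 and 33.7 CPM in afatinib skin, and 5.12 and 7.16 CPM in untreated skin. Mt1 rose by log2 2.97 (edgeR adjusted p = 0.00971) and 2.17 (edgeR adjusted p = 0.0308). Mt2A rose by log2 3.76 and 3.32 (edgeR adjusted p = 0.0136 and 0.0363).

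Slc39a8, which imports zinc and manganese, had 82.0 and 71.8 CPM in gefitinib skin, 25 and 50.6 CPM in afatinib skin, and 6.29 and 7.97 CPM in untreated skin. Slc39a8 rose by log2 3.43 (edgeR adjusted p = 0.00971) and 2.41 (edgeR adjusted p = 0.032). The zinc exporter Slc30a1 rose by log2 2.60 with gefitinib (edgeR adjusted p = 0.0413), and its 2.48 with afatinib did not pass (edgeR adjusted p = 0.087). For Mt1 and Slc39a8, unlike calprotectin, both gefitinib libraries lay above both afatinib libraries. The share of all genes with either order was not counted.

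Of 13 other antimicrobial genes listed, 5 were too low to test, and of the 8 tested 6 rose with gefitinib and 5 rose with afatinib. Defb3, Defb4 and Reg3g had at most 1 untreated count each and passed the filter through the rash libraries. Of the other 5, 3 rose with each inhibitor. Lyz2, the highest of the list, had 115.3 and 51.55 CPM in gefitinib skin, 168.6 and 148.5 CPM in afatinib skin, and 154.5 and 104.3 CPM in untreated skin. Lyz2 (edgeR adjusted p = 0.301 and 0.709) and Pglyrp1 (0.928 and 0.733) did not pass. All 13 summed to 147.1 and 85.34 CPM in gefitinib skin, 210.1 and 205.9 CPM in afatinib skin, and 159.2 and 107.3 CPM in untreated skin. Defb1, a beta-defensin, had 16.1 and 14.3 CPM in gefitinib skin, 11.7 and 17.9 CPM in afatinib skin, and 0.484 and 1.11 CPM in untreated skin. Defb1 rose by log2 4.23 (edgeR adjusted p = 0.00971) and 4.19 (edgeR adjusted p = 0.0182). Slpi, a secreted protease inhibitor, rose by log2 3.45 and 4.47 (edgeR adjusted p = 0.0168 and 0.0308). Defb14, a further beta-defensin, rose by log2 1.90 and 3.22 (edgeR adjusted p = 0.0487 and 0.035).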

How the data were processed

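RNA of flash-frozen back skin was extracted with Trizol and 1 ug of total RNA went into Illumina TruSeq libraries, per the labels' protocols. The authors deposited counts per gene and FPKM for all 6 libraries. Per the submitters' processing notes the tools included DESeq2 1.16.1, featureCounts 1.5.0-p3 and HISAT2 2.0.5. No source used here gives the build, annotation or strand setting, so overlapping and antisense genes could share reads. In the deposited FPKM, library depth was replaced by a DESeq2 size factor times a constant, as tested on the file.

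Counts were fitted with edgeR 4.0.16 in R 4.3.3 (TMM scaling, filterByExpr, quasi-likelihood test, 1 term per group over all 6 libraries), two-sided, with Benjamini-Hochberg adjustment over the 16398 loci tested and a threshold of 0.05. DESeq2 1.42.0, other scalings, no filter, a replicate block and each library left out were alternatives. Loci with no gene name held 1.68 to 2.54% of counts and stayed in the library sizes, since they carry an identifier. The scripts were tested on simulated counts. Fold bounds use a floor of 3 counts per library. Profile likeness used a pseudocount of 0.5 CPM.

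The calprotectin genes and all gene lists were chosen with earlier results of these data known. Names were drawn from the receptor and S100 lists, from up to 5 members of each other list and up to 4 of each main marker list with the smallest p, from the 8 nearest loci on each side, and from the 8 nearest profiles, and not every gene so listed is described. Genes named besides these, such as Krt17, Krt86, Serpinb3, Il1a, Il20, Mmp8, Itgam, Itgb2, Lyz2 and Pglyrp1, were chosen after their values were seen.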

Additional observations from a re-analysis of the deposited data

How the results depend on the processing

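No calprotectin ratio and no called gene named above changed direction under any alternative. Without 1 library at a time, log2 S100a8 ran from 5.96 to 6.74 (gefitinib), 7.25 to 7.41 (afatinib) and 0.59 to 1.37 (afatinib over gefitinib), and log2 S100a9 from 9.40 to 10.68, 10.2 to 11.45 and 0.40 to 1.29. Scaling by library size alone put the median log2 fold change of all genes at 0.73 with gefitinib and 0.71 with afatinib, against 0.04 and 0.09 in the main analysis. S100a8 was then at 7.06 and 7.94, and the gefitinib calls split into 3071 higher and 191 lower, against 2013 and 893. Genes passing with gefitinib numbered 2906, against 4594 by DESeq2 and 4550 with no filter, and 0 to 5320 without 1 library. With afatinib there were 652, against 1281 by library size, 1960 by DESeq2, 2083 with no filter, 369 with the replicate block, and 0 to 3653 without 1 library. Between the inhibitors there were 0, against 1, 28 and 28 by library size, DESeq2 and no filter, and 0 to 3 without 1 library. Of the 11 lists' genes, 0 to 45 passed with gefitinib and 0 to 44 with afatinib without 1 library, against 36 and 25. With afatinib, 38 passed by DESeq2 and 41 with no filter, and DESeq2 called 1 between the inhibitors. The cause was not tested, though the fits without a filter held more genes and those without a library fewer samples. The replicate numbers share only a number: deviations of same-numbered libraries correlated at 0.0331, 0.0374 and −0.174. With the block, 2298 genes passed with gefitinib and 0 between inhibitors. Of 99 calls of named genes, 99 held by DESeq2, 97 under size factor scaling, 95 by library size and 81 with the block. Nearly all were lost without untreated replicate 1 and all without untreated replicate 2. Many were also lost without either gefitinib library, and some without afatinib replicate 2. Such fits leave 1 library in a group. Depth limits S100a9, which had 15 untreated counts.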
